A study of Mus musculus with 10 samples.

Results

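Mouse embryonic stem (ES) cells that express Esrrb can be divided further by Tbx3, and that division, called the Tbx3 step here, was read as the difference between Esrrb-positive/Tbx3-positive (double-positive) and Esrrb-positive/Tbx3-negative (single-positive) cells. It uses 4 of the 10 libraries of the study, 2 per fraction, and 12717 of 32361 annotated rows, those with at least 1 FPKM in either fraction. FPKM is fragments per kilobase of transcript, scaled to the mapped fragments. Both fractions were sorted by fluorescence from 1 reporter line of E14Tg2a.4 ES cells, an established line, with knock-in fluorescent reporters in both Esrrb and Tbx3, and no treatment is named in the labels. The Esrrb-negative/Tbx3-negative (double-negative) fraction of the same line, and Zscan4-positive and Zscan4-negative cells of an E14Tg2a.4 line with a Zscan4c promoter-fragment reporter on a piggyBac transposon, served as reference levels. The sources used here give neither the sorting gates nor whether a line is 1 clone. Each fraction's 2 libraries were deposited as 1 merged value, so the differences below have neither an SD nor a test, no replicate could be compared, and read depth is unknown.

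Tbx3 encodes a T-box transcription factor of the naive pluripotency network, the set of factors that maintains ES cells in a state like the preimplantation epiblast. In mouse ES cells it is expressed unevenly from cell to cell, it acts downstream of PI3K signalling in self-renewal, and its forced expression drives primitive endoderm genes. Esrrb encodes an orphan nuclear receptor of the same network. FGF signalling through ERK, in turn, moves ES cells out of the naive state toward formative and primed epiblast.

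A total of 756 compared rows had levels in the double-positive and both Zscan4 fractions of at most 0.25 of the double-negative level. They form a profile of fibroblast and lymphocyte transcripts shared by double-negative and single-positive cells, and are treated apart. Among coding rows with at least 5 FPKM in double-negative cells, those just inside this boundary were Mxd4, with a highest ratio of 0.2499, and Syt13, with 0.2493. Those just outside were Ano10, with 0.2503, and Creb3l1, with 0.2505. Protein-coding rows outside the profile numbered 11185 and are the basis of the counts below. Both fractions carried ES cell factors at high level: Pou5f1 was at 2196 FPKM in single-positive cells and 2739 in double-positive ones, and Sox2 at 347 and 437 FPKM.

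Few coding genes were higher in double-positive cells. At least 2-fold on the scale of log2(FPKM + 1), 23 of 11185 rows were higher (0.206%) and 236 were lower (2.11%), and 89.1% lay within 0.5 of 0 on that scale. These counts depend on the settings: a pseudocount of 0.1 in place of 1 gave 64 higher and 463 lower, and a profile boundary of 0.1 or 0.5 in place of 0.25 gave 469 or 42 lower and left 23 higher. Differences below are double-positive minus single-positive on it unless another pair is named. It understates the difference of genes near 1 FPKM. The median coding row differed by 0.03, with quartiles of -0.16 and 0.16. In whole-fraction RNA, more cells expressing a gene and more RNA per cell cannot be told apart. Among all 12717 rows 47 were higher (0.37%) and 943 lower (7.42%), of which 676 lower rows belonged to the profile. Besides the 23 coding rows, the higher rows comprised the long noncoding RNA Dancr and 23 rows that were short RNAs (10) or had no match in the gene table (13), of which 8 were listed at 0 in single-positive cells.

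**Figure D1:**
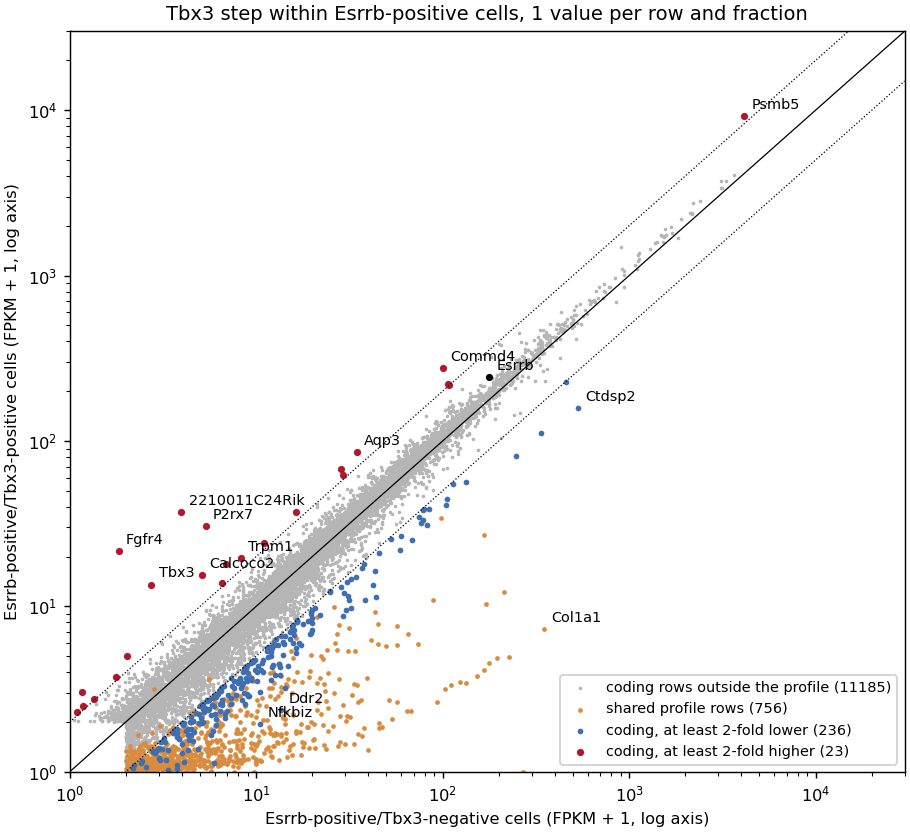
Level of each row in single-positive (x axis) and double-positive (y axis) cells, as FPKM + 1 on log axes, 1 merged value per row and fraction; the solid line marks equal levels and the dotted lines 2-fold. The 23 higher coding rows (red) are few against the 236 lower ones (blue), and the 756 profile rows (orange) lie almost entirely below the line.

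The 4 genes that mark double-positive cells were Tbx3 itself, Fgfr4, P2rx7 and Aqp3. The start regions of Fgfr4, P2rx7 and Aqp3 follow, because these genes were higher with the Tbx3 reporter, to show the sequence next to the genes described. They are RefSeq windows of build GRCm38.p6, from 250 bases before to 50 after an annotated start, in the direction of transcription, and P2rx7 has an upstream and an inner window. Capitals mark the 1 exact match among 4 motifs searched on both strands.
Aqp3, chr4:41098134-41098433, minus strand: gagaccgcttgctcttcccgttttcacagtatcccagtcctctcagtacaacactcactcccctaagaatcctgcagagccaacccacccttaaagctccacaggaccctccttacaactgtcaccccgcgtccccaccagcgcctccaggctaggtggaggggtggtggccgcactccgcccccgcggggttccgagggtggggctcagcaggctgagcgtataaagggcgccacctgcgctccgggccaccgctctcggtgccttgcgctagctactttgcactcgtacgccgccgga
Fgfr4, chr13:55152568-55152867, plus strand: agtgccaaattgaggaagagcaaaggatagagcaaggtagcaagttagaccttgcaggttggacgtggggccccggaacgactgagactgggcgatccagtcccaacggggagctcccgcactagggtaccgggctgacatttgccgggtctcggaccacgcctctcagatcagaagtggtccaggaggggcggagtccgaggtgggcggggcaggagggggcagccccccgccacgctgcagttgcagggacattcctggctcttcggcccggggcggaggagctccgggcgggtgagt
P2rx7, chr5:122643677-122643976, plus strand: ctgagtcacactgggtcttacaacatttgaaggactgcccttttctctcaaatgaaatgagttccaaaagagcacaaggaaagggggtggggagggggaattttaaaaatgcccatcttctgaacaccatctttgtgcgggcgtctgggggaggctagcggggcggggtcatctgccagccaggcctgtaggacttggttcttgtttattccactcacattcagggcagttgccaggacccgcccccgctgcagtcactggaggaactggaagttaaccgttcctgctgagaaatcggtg
P2rx7 (inner window), chr5:122650133-122650432, plus strand: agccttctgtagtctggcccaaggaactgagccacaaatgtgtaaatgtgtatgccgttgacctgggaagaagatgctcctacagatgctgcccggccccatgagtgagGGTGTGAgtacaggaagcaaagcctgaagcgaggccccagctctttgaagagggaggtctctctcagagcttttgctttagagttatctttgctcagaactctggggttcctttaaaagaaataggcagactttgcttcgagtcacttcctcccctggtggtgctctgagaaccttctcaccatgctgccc
The motifs were a T-box half-site, AGGTGTGA, its inner part GGTGTGA, an ESRRB site, TCAAGGTCA, and its core AAGGTCA. The inner part lies within the half-site, and the core within the ESRRB site. Of the 24 higher coding and long noncoding genes, 14 had windows in the table, 16 in all. GGTGTGA occurred in 1 of these 16, the inner P2rx7 window, on the plus strand and starting 141 bases before that start, against 3.98% of all 32851 windows. The other motifs occurred in none of the 16, against 1.28% of all windows for AGGTGTGA, 0.423% for TCAAGGTCA and 4.72% for AAGGTCA. A match is a description of these letters and not a site. The windows of Fgfr4 and Aqp3 were rich in G and C, at 65.3% and 64.0%, and those of P2rx7 were at 53.3% and 51.7%, where the median window was at 52.7%.

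Tbx3 (chromosome 5, 119670862 to 119684724 in mm10, plus strand) had 0.638 FPKM in double-negative cells, 1.75 FPKM in single-positive cells and 12.6 FPKM in double-positive cells, with 11.4 and 35.3 FPKM in the negative and positive Zscan4 fractions. The double-positive level was thus 7.19 times the single-positive one, a difference of 2.30 in the direction of the labels. Esrrb (chromosome 12, 86361117 to 86521628, plus strand) reached 43.3, 177 and 243 FPKM in double-negative, single-positive and double-positive cells. The fractions therefore differed by 0.46 in Esrrb as well, so that the level of Tbx3 and the level of Esrrb cannot be told apart in this comparison. Of 17 T-box family genes, 5 passed the filter on low values. Mga, the most abundant, was at 35.8 FPKM in single-positive cells and 39.0 in double-positive ones, Eomes was near 1 FPKM in both, and Tbx15 and Tbx18 were profile rows that differed by -0.99 and -0.93.

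Fgfr4, which encodes an FGF receptor tyrosine kinase (chromosome 13, 55152818 to 55168759, plus strand), showed the largest positive difference among the 11185 coding rows. Its levels were 0.891, 0.837 and 20.6 FPKM in double-negative, single-positive and double-positive cells. The Zscan4-negative fraction had 17.5 FPKM and the Zscan4-positive fraction 12.1 FPKM, so both Tbx3-low fractions were below 1 FPKM and the other 3 above 10. The difference was 3.56, or 24.7 times on the FPKM scale. Between the Tbx3-low fractions, single-positive minus double-negative, it differed by -0.04.

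The other receptors and co-receptors of the FGF pathway differed less. Fgfr1, with the highest receptor level, was at 31.6, 25.7 and 28.7 FPKM in double-negative, single-positive and double-positive cells, Fgfr2 at 6.87, 15.6 and 11.0, and Fgfr3 below 1 FPKM in each. Klb, which encodes the co-receptor that FGFR4 uses for endocrine FGFs, did not pass the filter, with 0.0750 FPKM in the double-positive fraction. Of 10 compared receptors and co-receptors, Fgfr4 alone was higher and the proteoglycan gene Sdc1, at 5.66 against 13.3 FPKM, alone was lower, and the list median was -0.12. Sdc1 was highest in double-negative cells, at 18.9 FPKM. On the FPKM scale, which divides by length, Fgfr4 at 20.6 stood between Fgfr2 and Fgfr1 in double-positive cells.

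Among 8 compared FGF ligands none was higher. Fgf4, the main autocrine ligand of ES cells, was at 62.3 FPKM in single-positive cells and 91.8 in double-positive ones, a difference of 0.55. Fgf15, at 5.23 and 4.52 FPKM, is the mouse ligand of the FGFR4 and Klb receptor pair. Fgf7, at 5.32 and 0.156 FPKM, was the only lower ligand and is a profile row. None of 19 adaptors and kinases of the RAS and MAPK chain passed 2-fold, and their median was 0.07. The 16 ERK response genes had a median of 0.04. The ETS factor gene Etv4, at 8.38 and 14.1 FPKM, differed by 0.68, the feedback inhibitor genes Spry4 and Dusp6 by 0.21 and 0.08, and Phlda1 by -1.25, the only one past 2-fold. Phlda1 was highest in double-negative cells, at 4.86 FPKM. The median of these response genes was close to that of all coding rows, 0.03.

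P2rx7 (chromosome 5, 122643911 to 122691432, plus strand) encodes an ATP-gated cation channel that opens at high extracellular ATP. Its levels were 4.06, 4.36 and 29.5 FPKM in double-negative, single-positive and double-positive cells, and the Zscan4-negative and Zscan4-positive fractions lay between, at 16.1 and 7.23 FPKM. It was 6.76 times higher across the Tbx3 step, a difference of 2.51, and both Tbx3-low fractions were below the other 3. The gene list held 22 purinergic receptors and ATP channels, of which 8 passed the filter. P2rx4, another ATP-gated channel gene, was at 5.59 and 4.19 FPKM, the ATP release channel gene Panx1 at 7.15 and 4.61, and the remaining members outside the profile were below 2 FPKM. P2ry10, at 6.73 and 0.282 FPKM, was the single lower member and a profile row.

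Aqp3 (chromosome 4, 41092724 to 41098183, minus strand), which encodes a water and glycerol channel, was graded rather than absent in single-positive cells. Its levels were 13.7, 33.8 and 85.1 FPKM in double-negative, single-positive and double-positive cells, and 43.6 and 125 FPKM in Zscan4-negative and Zscan4-positive cells. The difference across the Tbx3 step was 1.31. Of 12 aquaporin genes, 4 passed the filter: Mip stayed below 2 FPKM, Aqp11 was at 4.70 and 1.20 FPKM, and Aqp1, at 11.0 and 0.247 FPKM, is a profile row.

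**Figure D2:**
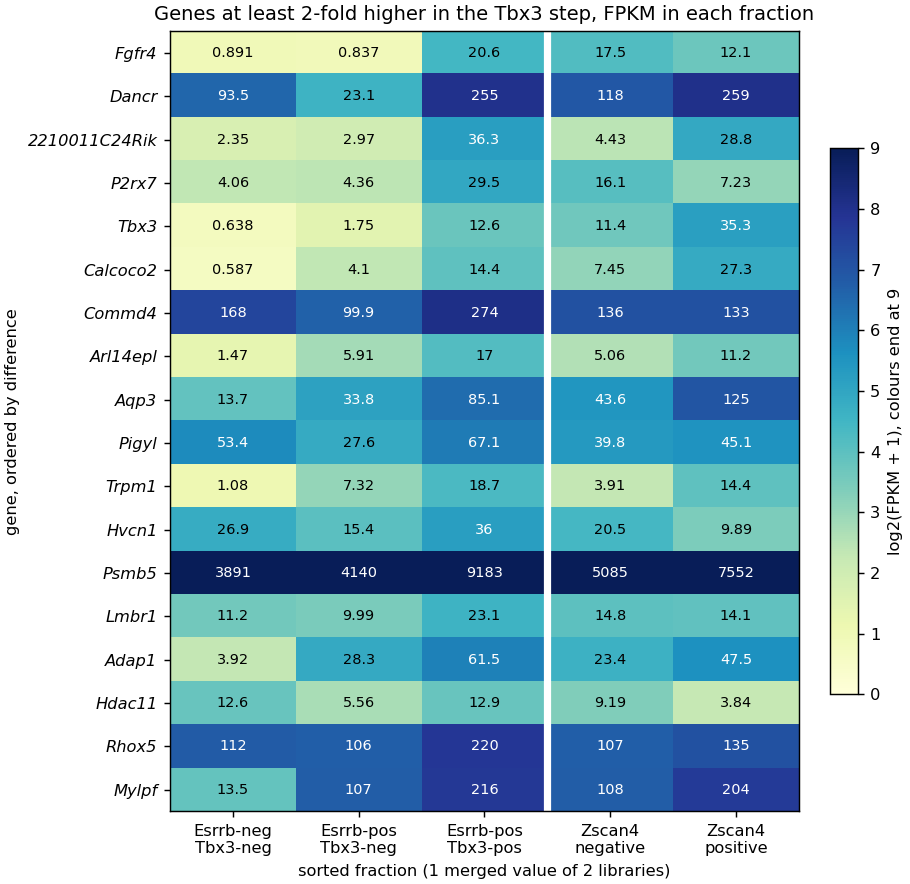
FPKM in each of the 5 fractions (columns, 1 merged value each) for Dancr and the 17 coding genes at least 2-fold higher in the Tbx3 step with 5 FPKM or more in double-positive cells (rows, ordered by difference); colour is log2(FPKM + 1), ending at 9. Fgfr4, P2rx7 and Tbx3 were low in both Tbx3-low fractions, whereas Dancr, Commd4 and Pigyl were lowest in single-positive cells.

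Further ion channels were among the higher genes. Hvcn1, which encodes a voltage-gated proton channel, was at 26.9, 15.4 and 36.0 FPKM in double-negative, single-positive and double-positive cells, a difference of 1.18. Trpm1, a melastatin-type cation channel gene known from melanocytes and retina, was at 1.08, 7.32 and 18.7 FPKM and differed by 1.24. The order of the fractions differed between them: Trpm1 was lowest in double-negative and Hvcn1 in single-positive cells. Fxyd2, a subunit gene of the sodium pump, was at 0.0421, 0.765 and 2.77 FPKM. Of 9 voltage-gated proton and TRPM channel genes, listed after their values were seen, 4 were compared. Hvcn1 and Trpm1, already known to be higher, were the 2 higher ones. That count was set by the choice of list and cannot be compared with the 0.206% of coding rows outside the profile. Trpm7 and Trpm4 differed by 0.02 and 0.11. The remaining 5 were below 1 FPKM in every fraction.

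Among intracellular proteins, the autophagy receptor gene Calcoco2 was at 0.587, 4.1 and 14.4 FPKM in double-negative, single-positive and double-positive cells, a difference of 1.60. The ARF GTPase regulator gene Adap1 was at 3.92, 28.3 and 61.5 FPKM, and Mylpf, a light chain gene of fast muscle myosin, at 13.5, 107 and 216 FPKM, with differences of 1.09 and 1.01. In these 3 genes the levels stood in the order double-negative, single-positive, double-positive. Psmb5, which encodes a catalytic subunit of the proteasome, was at 3891, 4140 and 9183 FPKM and was the most abundant of the higher genes. Its locus contains the microRNA gene Mir686, and unstranded or short reads of such a gene were not separated here. The class IV deacetylase gene Hdac11 was at 12.6, 5.56 and 12.9 FPKM, and the limb-region gene Lmbr1 at 11.2, 9.99 and 23.1.

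In all 23 coding genes double-positive cells had the highest level of the 3 fractions of the reporter line, which follows in part from the choice of genes higher than in single-positive cells. Over all coding rows this held for 5230 of 11185 (46.8%). In 13 of the 23 (56.5%) the double-negative level was at or below the single-positive level, as in Aqp3, Calcoco2 and Trpm1, close to the 52.1% of all coding rows. In the other 10 (43.5%, against 15.4% of all coding rows) the single-positive level was the lowest of the 3. It was so by little in several, as in Fgfr4 and Rhox5, or at levels below 1 FPKM, as in Gm5662. The choice of genes lower in single-positive than in double-positive cells favours that order. Single-positive cells were below double-negative ones by at least 0.5 (log2), and below double-positive ones, in 4 (17.4%, against 1.52% of all coding rows). These were Commd4 (168, 99.9 and 274 FPKM), Pigyl (53.4, 27.6 and 67.1), Hvcn1 and Hdac11. Dancr, the long noncoding RNA, was also lowest in single-positive cells, at 93.5, 23.1 and 255 FPKM. Its locus holds the small nucleolar RNA gene Snora26, and of 10 measured small nucleolar RNA hosts it alone was past 2-fold, with Gas5 at -0.82 and a list median of -0.08.

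The remaining higher genes were Rhox5, a homeobox gene of the X chromosome at 112, 106 and 220 FPKM, the uncharacterized gene 2210011C24Rik at 2.35, 2.97 and 36.3, and Arl14epl at 1.47, 5.91 and 17.0. A further 6 of the 23 stayed below 5 FPKM in double-positive cells: Timm8a2, Fxyd2, Fbp2, Gm5662, Gm20767 and Gm8300. The last 3 belong to families of near-identical copies that are transcribed with the 2-cell program, and the split of reads among such copies is uncertain. At the boundary, among coding rows with at least 5 FPKM in the higher of the compared fractions, Mylpf (1.01) and Rhox5 (1.05) lay just inside and Gstp2 (0.98) and Pmel (0.98) just outside.

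In Zscan4-negative cells, which come from the other line and were not sorted by Tbx3, 20 of the 23 genes lay between their single-positive and double-positive levels. Over all 11185 coding rows 2048 did so in the same order. The 23 were chosen for a gap of at least 2-fold between these levels, so another level falls between them more easily. The Zscan4 sort shares no column with the Tbx3 step. Between its positive and negative fractions, 221 of the coding rows were at least 2-fold higher (1.98%) and 60 lower (0.536%). Of the 23 genes higher with Tbx3, 10 were also higher with Zscan4, which is 43.5% of the 23 and 4.52% of the 221: Tbx3, Aqp3, Calcoco2, Trpm1, Arl14epl, 2210011C24Rik, Fbp2, Gm5662, Gm20767 and Gm8300. Gm5662, for example, was at 0.171 FPKM in single-positive, 2.04 in double-positive and 191 in Zscan4-positive cells.

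The overlap was not limited to the 2-cell copies. It was 9 of 22 (40.9%) without Tbx3, and 6 of 17 (35.3%) among genes at 5 FPKM or more in double-positive cells, the fraction in which they were chosen to be high. Of the overlapping genes, Gm5662, Gm20767, Gm8300 and Fbp2 passed the 1 FPKM filter through double-positive cells alone. So did Fgfr4 and Fxyd2 among the rest of the 23, at 0.837 and 0.765 FPKM in single-positive cells. In the band from 1.5-fold to 2-fold the overlap was 26 of 142 (18.3%), and among rows within 0.5 of 0 in the Tbx3 step it was 141 of 9965 (1.41%). Overlap with the higher side of the Zscan4 sort was also above the 1.98% of all coding rows among the 236 genes lower with Tbx3, at 21 (8.90%). The profile, left out here, was defined by low levels in both Zscan4 fractions, so the lower rows that remain are in part those with a higher Zscan4 level. Of the 23 genes 16 had a positive difference in the Zscan4 sort and 7 a negative one. P2rx7 (-1.05) and Hdac11 (-1.07) were past 2-fold on the lower side, 8.70% of the 23 against 0.536% of all coding rows. The other negative ones were Hvcn1 (-0.98), Fgfr4 (-0.50), Timm8a2 (-0.21), Lmbr1 (-0.07) and Commd4 (-0.03). The 4 marker genes therefore differed in this second sort, with Tbx3 (1.55) and Aqp3 (1.49) higher and Fgfr4 and P2rx7 not.

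**Figure D3:**
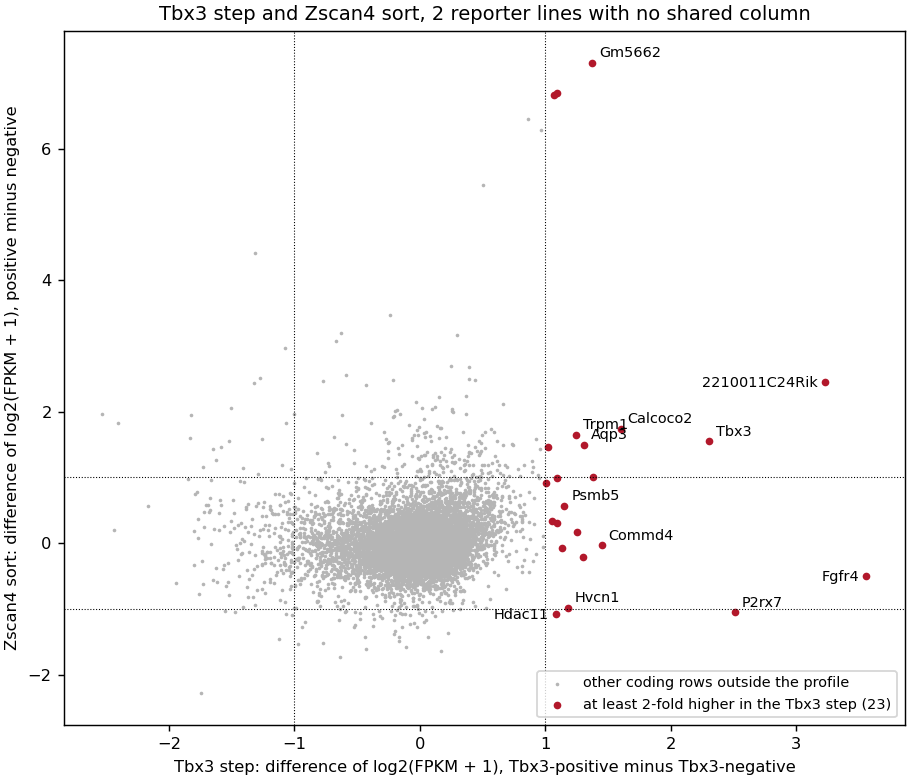
Difference in log2(FPKM + 1) of each coding row outside the profile in the Tbx3 step (x axis, double-positive minus single-positive) and in the Zscan4 sort (y axis, positive minus negative); dotted lines mark 2-fold and red points the 23 genes higher with Tbx3. Of the red points 10 lie above the upper line and 2, P2rx7 and Hdac11, below the lower one.

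Naive pluripotency factors lay slightly above 0 together, none past 2-fold. Of 16, 15 had a positive difference, against 54.9% of all coding rows, with a median of 0.48: Tcl1, a coactivator gene of AKT, was at 80.8 and 141 FPKM, the nuclear receptor gene Nr0b1 at 109 and 174, Klf2 at 262 and 395 and Nanog at 278 and 388. Gbx2, at 26.2 and 23.3 FPKM, was the exception. The 12 factors shared by naive and primed cells had a median of 0.27, all 12 with a positive difference and none past 2-fold. Other lists were as one-sided, with 16 of 16 mitotic genes and 23 of 25 oxidative phosphorylation subunits above 0. With columns scaled to equal totals the naive median was 0.41, where the median coding row was at -0.04.

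Formative and primed genes had a median of -0.21 over 17, with 3 lower by 2-fold: Sox4 at 30.3 and 9.91 FPKM, Lef1 at 19 and 8.53, and the surface glycoprotein gene Cd24a at 51.6 and 24.5. Pou3f1 and Otx2, transcription factors of that state, were at 5.30 and 3.66 FPKM and at 20.1 and 17.3. These 3 lower genes were highest in double-negative cells, at 43.1, 31.2 and 72.2 FPKM, and so ran in the order of the profile described below; the part of the profile in them was not tested. All 16 compared germline genes likewise had a positive difference, with a median of 0.41 and Rhox5 alone past 2-fold, and Mael, a piRNA pathway gene, was at 4.69 and 8.50 FPKM.

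Other signalling and lineage lists held few members past 2-fold. No LIF and STAT3 pathway gene outside the profile passed it, with a list median of 0.00 and Socs3 at 53.6 and 52.9 FPKM. PI3K and AKT genes had a median of -0.13, with the catalytic subunit gene Pik3cd (11.0 and 2.61 FPKM) and the regulatory subunit gene Pik3r1 (8.48 and 3.68) lower, and BMP pathway genes also -0.13, with Id3 and Id2 lower. The NODAL list had a median of 0.16 with Smad3 lower, at 27.4 and 12.1 FPKM, and the WNT list 0.12 with Lef1 lower. In double-negative cells Pik3cd, Pik3r1, Id3, Id2 and Smad3 were higher still, at 13.4, 10.3, 104, 41.3 and 30.1 FPKM. Like Lef1, they thus ran in the order of the profile over the fractions of this reporter line, and the part of the profile in them was not tested. Primitive endoderm genes, of which 7 of 15 passed the filter, had 5 lower members, 4 of them in the profile. Gata4, Gata6, Sox17 and Sox7 did not reach 1 FPKM in either fraction. The 8 compared trophectoderm genes had 3 lower, 2 of them in the profile. Housekeeping lists were narrow: 25 ribosomal protein genes had a median of 0.17, 25 oxidative phosphorylation subunits 0.09, 18 glycolysis genes 0.09, 18 replication genes -0.02 and 16 mitotic genes 0.24, with none past 2-fold.

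**Figure D4:**
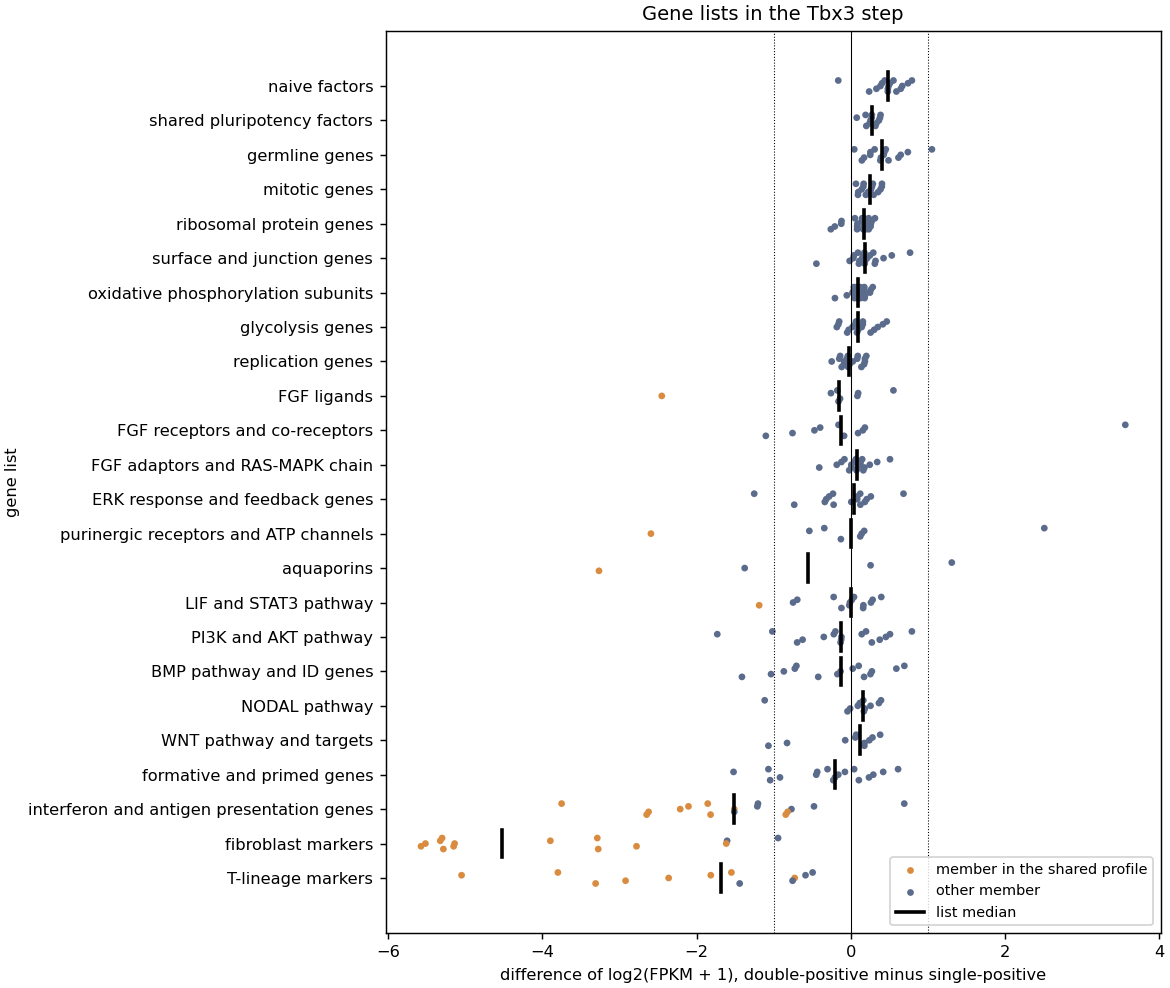
Difference in log2(FPKM + 1), double-positive minus single-positive (x axis), for the compared members of 24 gene lists (rows, 1 point per gene); orange marks members of the shared profile, bars are list medians and dotted lines mark 2-fold. Fgfr4 and P2rx7 are alone in their lists beyond the right dotted line, naive factors lie slightly right of 0, and fibroblast and T-lineage markers lie far left.

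The shared profile made up most of the lower rows. Of its 756 rows, 676 were at least 2-fold lower and 0 higher, and the median was -1.68, which follows in part from its definition by a low double-positive level. Its share of the FPKM total was 2.35% for double-negative, 1.56% for single-positive and 0.112% for double-positive cells. The single-positive level was a median of 0.702 of the double-negative level, with the middle 95% of rows between 0.451 and 0.891. The 16 fibroblast markers summed to 2459, 1774, 147, 140 and 170 FPKM in double-negative, single-positive, double-positive, Zscan4-negative and Zscan4-positive cells. The 13 T-lineage markers summed to 358, 270, 36.7, 27.8 and 23.7 FPKM in the same order, and 8 cytotoxic cell markers to 272, 190, 4.88, 3.79 and 5.23. Of these lists 12, 8 and 3 members were profile rows, and Col1a1, the collagen gene with the highest level, was at 348 FPKM in single-positive cells and 6.32 in double-positive ones. Every fibroblast and T-lineage marker was above 0 in single-positive and double-positive cells, and 1 cytotoxic marker was listed at 0 in each of them. Adipose markers summed to 67.0, 50.5, 2.87, 2.19 and 3.47 FPKM, with 3 of 3 compared members in the profile, and muscle markers to 52.1, 34.2, 4.16, 3.97 and 4.50 with 1 of 2. Macrophage markers summed to 12.5, 13.3, 19.13, 13.3 and 17.3 FPKM, with only 1 member compared and at 1 FPKM or more. Endothelial markers summed to 24.95, 38.5, 42.9, 28.2 and 37.8, with 4 compared. Neither list had a profile row among its compared members. Erythroid and B-lineage markers each had 1 compared member, not in the profile.

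Hprt, the purine salvage enzyme gene that is deficient in E14Tg2a and its derivatives, was at 28.0, 19.3 and 0.954 FPKM in double-negative, single-positive and double-positive cells, so it followed the profile. Of 16 compared interferon and antigen presentation genes 11 were lower and 10 were profile rows, with B2m at 166 and 26.1 FPKM and the immunoproteasome gene Psmb8 at 35.7 and 1.73. The imprinted genes H19 (102 and 2.16 FPKM) and Igf2 (9.89 and 1.06), and the AP-1 genes Fos and Fosl2, were profile rows as well.

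Coding rows that were lower but outside the profile resembled it over the other fractions. Of the 236, 214 (90.7%) had a single-positive to double-negative ratio within the profile's middle 95%, against 18.3% of the 7935 coding rows within 0.5 of 0 with at least 5 FPKM in double-negative cells. The choice of rows low in double-positive cells limits that ratio in part. A total of 217 (91.9%) had a Zscan4-negative level of at most 0.5 of the double-negative level, against 1.34% of the same 7935 rows and 8.14% of all 11185. The 7935 rows were chosen to differ little in the step, so this contrast is in part built in. In 194 of the 236 the double-positive and both Zscan4 levels were at most 0.5 of the double-negative level. Jun, an AP-1 subunit gene at 24.3, 13.3 and 2.19 FPKM in double-negative, single-positive and double-positive cells, and Ddr2, a collagen receptor kinase gene at 19.3, 12.7 and 1.36, were of this kind. The fibroblast and T-lineage sums given above moved in the same order as these rows, and their part in the 236 was not tested. At the boundary, among coding rows with at least 5 FPKM in the higher of the compared fractions, Dok2 (-1.002) and Atf5 (-1.01) lay inside, and Copz2 (-0.997) and Cyth1 (-0.995) outside.

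In 8 of the 236 the single-positive level was instead at or above the double-negative level, so that single-positive cells were the highest of the 3. Ctdsp2, a nuclear phosphatase gene that contains the microRNA gene Mir26a-2, was at 231, 530 and 157 FPKM in double-negative, single-positive and double-positive cells, and at 343 and 69.8 FPKM in Zscan4-negative and Zscan4-positive cells. It was therefore lower in the positive fraction of both sorts, by -1.75 and -2.28. Nfkbiz, which encodes a nuclear IkB protein, was at 3.78, 9.55 and 0.952 FPKM, and at 4.76 and 5.59 FPKM in the Zscan4 fractions. Nckipsd, an adaptor gene of the actin cytoskeleton, was at 28.8, 37.2 and 9.99 FPKM but at 55.1 and 43.6 FPKM in the Zscan4 fractions, so double-positive cells had the lowest level of all 5. Atp6v0a2, a subunit gene of the vacuolar proton pump, was at 38.0, 43.2 and 10.5 FPKM. The others were AU040320, Lst1, Limd1 and Acap1, the first 3 below 15 FPKM in each fraction and Acap1 at 32.8, 33.3 and 14.1. In Zscan4-negative and Zscan4-positive cells Atp6v0a2 was at 16.9 and 10.8 FPKM, Acap1 at 7.76 and 6.15, and Lst1 at 1.33 and 1.07. AU040320 was at 4.99 and 4.46 FPKM there and Limd1 at 8.55 and 5.99. Atp6v0a2, Acap1, Lst1, AU040320 and Limd1 were thus each below their double-negative level in both Zscan4 fractions. That is a weaker condition than the profile boundary, and none of them is a profile row. Nfkbiz and Nckipsd were instead above their double-negative level in both Zscan4 fractions, and Ctdsp2 was above it in Zscan4-negative cells only. The part of the profile in these genes was not tested.

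**Figure D5:**
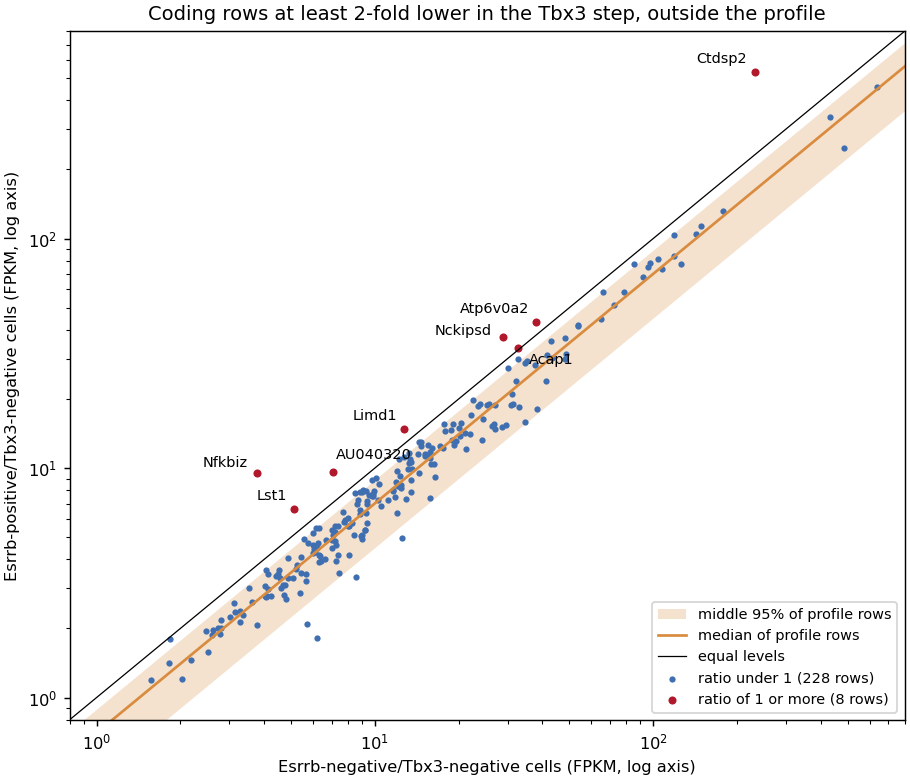
Level in double-negative (x axis) and single-positive (y axis) cells, FPKM on log axes, of the 236 coding rows outside the profile that were at least 2-fold lower in double-positive cells; the band is the middle 95% of profile rows and the black line marks equal levels. Most points lie inside the band, and the 8 red points, at or above the black line, include Ctdsp2 and Nfkbiz.

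By position, 5 of the 23 higher coding genes lay on chromosome 5, the chromosome of Tbx3 (21.7%, against 6.54% of all coding rows compared): Tbx3, P2rx7, Hvcn1, Lmbr1 and Adap1. Tbx3, whose reporter set the sort, counts among them by design. Within 5 Mb of Tbx3 there were 126 other coding rows, with a median of 0.07. Of these, P2rx7 and Hvcn1 were higher (1.59%, against 0.206% of all) and 4 were lower, including Atp6v0a2 (3.17%, against 2.11%). Both compared coding rows of chromosome Y were lower. Eif2s3y was at 4.24, 2.77 and 0.106 FPKM in double-negative, single-positive and double-positive cells, and Ddx3y at 2.51, 1.57 and 0.0750. Both ran in the order of the profile over these fractions, with single-positive to double-negative ratios of 0.652 and 0.627. In Zscan4-negative and Zscan4-positive cells they were at 78.2 and 82.4 FPKM and at 12.7 and 17.3, which placed them outside the profile. The reporter lines thus differed in these Y transcripts, and the reason was not tested. By length, the higher genes had a median longest transcript of 1840 bases against 3367 over all coding rows, and 5 of them (21.7%) were under 1000 bases against 4.17%. A short RNA gene lay inside 4 of the 23 loci (17.4%), those of P2rx7, Psmb5, Trpm1 and 2210011C24Rik, against 10.3% of all. These are descriptions of the 23 rows, and the part of transcript length or of embedded short RNAs in their values was not tested.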

How the data were processed

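Per the labels' protocols, a Qiagen RNeasy kit served for RNA of the 5 sorted fractions and the NEBNext Ultra RNA kit for libraries. Biological replicates came from different days and were run on a HiSeq2500 instrument, per the series' design text. The submitters' processing notes name build mm10 and the tools Cuffdiff 2.2.1, Cufflinks, TopHat2 2.0.14 and bcl2fastq 1.8.4. The deposited values are FPKM, 1 per row and fraction. How the authors merged libraries, and which annotation they used, is not given in the sources used here. FPKM keeps no read depth: among 951 rows below 0.05 FPKM in both columns, the most common ratio held 2.21% of rows, so no whole reads could be recovered. The FPKM totals ran from 507495 to 552117.

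Differences were taken on log2(FPKM + 1), with a filter of 1 FPKM and a 2-fold size rule. Of the rows compared, 12252 matched a RefSeq symbol or synonym, which gave the gene kind. Coordinates are those of the deposited rows, counted from 1. Transcript lengths and embedded genes came from GENCODE on the same build, which matched 10803 of 11185 coding rows. The 42 gene lists hold 616 genes, 602 of them found. The members and lists were chosen with earlier results of these data known. Named genes were the 20 largest differences in each direction with at least 5 FPKM, the markers, up to 4 list members past 2-fold or by level, the 10 highest profile rows and the 10 lower rows with the largest single-positive to double-negative ratio. Genes named outside this rule, such as Hprt, the low-level higher genes, most list members under 2-fold and those of the closing observations, were chosen after their values were seen. Python 3.11.15, pandas 2.3.3, numpy 2.4.6 and matplotlib 3.10.9 were used, and the steps were tested on simulated data. Alternatives covered the pseudocount, filter, scaling, summed rows, profile boundary and size rule.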

Additional observations from a re-analysis of the deposited data

How the results depend on the processing

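The deposited values limit every result above to 1 number per fraction, and the spread between days is unknown. No paired analysis was possible because each fraction is 1 merged column, and leaving out libraries could not be run for the same reason. The counts depend on low values and on the size rule. A pseudocount of 0.1 gave 64 higher and 463 lower coding rows, 102 higher rows in all and an overlap of 28 with the Zscan4 sort, and a pseudocount of 0.5 gave 39 higher coding rows and an overlap of 17. A filter of 5 FPKM gave 477 lower rows in all, 296 lower profile rows and an overlap of 6. A profile boundary of 0.1 gave 469 lower coding rows and 427 lower profile rows, and a boundary of 0.5 left 42 lower coding rows. At 1.5-fold there were 165 higher and 753 lower coding rows, 220 and 1582 rows in all and an overlap of 63. The other 46 alternative counts, including the overlap of 9 without Tbx3, which was added after the data were seen, stayed within 1.5 times of the reported ones. Of the 23 higher coding genes, 20 remained under equal totals, 22 under median-ratio scaling, 21 after centring and 17 with a filter of 5 FPKM, and 23 under the other alternatives. Rhox5 (0.97) and Mylpf (0.93) were under 2-fold with equal totals, and Mylpf also with median-ratio scaling (1.00, just under) and centring (0.98). No named gene and no list median past 2-fold changed sign.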

Other observations

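A further 142 coding rows outside the profile were between 1.5-fold and 2-fold higher in double-positive cells. The gene groups below were listed only after their values had been seen, so their counts are descriptions. Of 17 pigment cell genes 8 were compared and 4 were at least 1.5-fold higher, where 1.48% of all coding rows outside the profile were (165 of 11185): the melanosome matrix gene Pmel was at 6.26, 20.3 and 40.9 FPKM in double-negative, single-positive and double-positive cells, Mia at 3.24, 10.3 and 16.7, Mlana at 0.764, 1.26 and 2.74, and Trpm1, past 2-fold, as given above. The master regulator gene Mitf was at 5.31 and 5.45 FPKM in single-positive and double-positive cells, and Tyr, Tyrp1 and Dct, the pigment enzymes, were below 0.1 FPKM in all 5 fractions. Both widely expressed genes of metallothioneins, which are metal-binding proteins, lay in this band: Mt1 was at 256 and 450 FPKM and Mt2 at 206 and 378, while Mt3 was at 3.33 and 2.47. In Zscan4-positive against Zscan4-negative cells Mt1 and Mt2 differed by -0.35 and -0.44.

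The ribosomal protein paralogs of the germline Rpl39l and Rpl10l were at 201 and 386 FPKM and at 20.2 and 39.2 FPKM in single-positive and double-positive cells. Both were also higher in Zscan4-positive cells, at 597 and 93.9 FPKM against 289 and 30.7 in Zscan4-negative cells. Of 6 compared paralogs these 2 passed 1.5-fold, beside the same 1.48% of coding rows, while Rpl22l1 was at 165 and 150 FPKM. The forkhead factor gene Foxd3 was at 27.2, 23.2 and 44.2 FPKM, and the activin subunit gene Inhbb at 0.511, 4.41 and 8.50 FPKM, in double-negative, single-positive and double-positive cells.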
